A study of Drosophila melanogaster with 5 samples.

Results

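The genes described here encode the subunits of the class III phosphatidylinositol 3-kinase complexes of autophagy, together with the autophagy cargo adaptor ref(2)P. They are Pi3K59F (the Drosophila Vps34), Vps15, Atg6, Atg14, Uvrag and ref(2)P. They were taken as every probe set whose platform annotation gives 1 of these 6 symbols and no other gene. Each gene has 1 such probe set, so the members are 6 of the 11982 genes with such a probe set, or 6 of the 18769 probe sets outside the array's own controls, and all 6 passed the filter on low signal that left 11261 for testing. No member was represented by a further probe set shared with another gene.

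The study measured total RNA of salivary glands of Drosophila melanogaster, taken 14 h after puparium formation, on 5 Affymetrix arrays of 1 colour. The glands of 3 arrays came from animals with the transgene P{hs-Fkh111}, a heat-inducible copy of fork head (fkh), a forkhead transcription factor needed for gland development; the labels call these glands fkh-expressing. The glands of the other 2 arrays came from w1118 animals, a white-eyed laboratory strain, written w1118(3) in the sample titles. Both groups were raised at 25 °C, received 30 min at 37 °C starting 9.5 h after puparium formation, and were dissected at 14 h, so that heat shock is common to both. A heat shock promoter is not specific to the gland, and how many animals each sample holds is not stated in the labels. Salivary glands at this time are near the end of their life as larval secretory organs. Which genes respond to Fork head in these glands is the question in the series title.

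Vps34 is a lipid kinase that makes phosphatidylinositol 3-phosphate (PI3P), the lipid that marks forming autophagosomes and endosomes. It works as a complex with Vps15, a protein kinase-like regulatory subunit, and Atg6, the fly Beclin. A further subunit sets where the complex acts: Atg14 directs it to the site where autophagosomes form, and Uvrag directs it to endosomes and later steps. ref(2)P, the fly p62, binds ubiquitylated proteins and Atg8a and is itself carried into autophagosomes and degraded there. Autophagy takes part in the destruction of the larval salivary gland during metamorphosis.

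The fkh probe set itself went against the labels. It read 41.5, 47.0 and 58.3 in Fkh-labelled arrays 1, 2 and 3, against 129.6 and 120.3 in w1118 arrays 1 and 2. Whether this probe set lies within the transgene is not known here, and fkh nearer to the heat shock was not measured, so the first group is called the Fkh-labelled arrays and each direction rests on its labels. Salivary gland markers summed to between 63810 and 65388 intensity units in the Fkh-labelled arrays, against 26042 and 29883 in the w1118 arrays. Of 15 tested 10 rose and 1 fell, beside 21.5% and 19.3% of all 8298 genes tested. The sums differed mostly through Sgs1, Sgs3, Sgs4, Sgs5 and Pig1. Sgs5 differed most, with means of 10172 in the Fkh-labelled and 818 in the w1118 arrays. Sgs7 fell, and Sgs8, ng2, PH4alphaSG2 and Eig71Ea were not called. Of these Sgs8 was lower in every Fkh-labelled array, and the bright Eig71Ea had means of 12414.5 and 12885. Of 7 fat body markers tested 3 fell, beside the same 19.3%, and Fbp2, Yp1, apolpp and Col4a1 were not called. Their sums were 11825 to 13177 in the Fkh-labelled arrays against 21802 and 23057 in the w1118 arrays. Obp44a had the largest part in this difference, with means of 1704 in the Fkh-labelled and 6483 in the w1118 arrays. Of 6 haemocyte markers tested 3 fell, beside the same 19.3%, and the defining markers Hml and eater were under the filter. Pxn, Sr-CI and He were not called, and He was higher in every Fkh-labelled array. The sums were 1467 to 2026 in Fkh-labelled and 3470 and 3620 in w1118 arrays. They rest mostly on crq, with means of 1305 and 2285, and NimC4, with means of 222 and 912. Of 4 tracheal markers 3 fell, beside the same 19.3%, with sums of 3030 to 3330 in Fkh-labelled and 4922 and 5502 in w1118 arrays. These sums rest mostly on Gasp, verm and serp, which fell. The fourth, btl, was not called and was higher in every Fkh-labelled array, with means of 54.6 and 32.1. Muscle markers overlapped, with sums of 389 to 499 in Fkh-labelled and 431 and 468 in w1118 arrays. Actin probe sets at the 3′ end read 4.94, 4.30 and 3.37 times those at the 5′ end in Fkh-labelled arrays 1, 2 and 3, against 2.47 and 2.54 times in the w1118 arrays. The same ratio for Gapdh overlapped, at 1.56, 1.14 and 1.11 in the Fkh-labelled arrays against 1.16 and 1.14 in the w1118 arrays. For eIF-4a it did not overlap, at 2.35, 1.81 and 1.68 in the Fkh-labelled arrays against 1.53 and 1.55 in the w1118 arrays. The largest ratio of any control set was that of 1 set of thr controls, designed to a bacterial transcript. There it was 21.0, 7.53 and 9.91 in the Fkh-labelled arrays against 1.75 and 2.37 in the w1118 arrays. For another set of thr controls it overlapped, at 3.94, 3.36 and 2.32 in the Fkh-labelled arrays against 2.35 and 2.62 in the w1118 arrays. The part of these differences in the results below was not tested. In whole glands, fewer cells of a type and less RNA per cell cannot be told apart.

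The mRNAs of the kinase complex did not all change in the same direction. In the Fkh-labelled arrays Atg6 and the catalytic subunit Pi3K59F rose, while Vps15 and Atg14 fell and Uvrag did not pass the test. ref(2)P rose. In all, 5 of the 6 members were called, beside 39.4% of the 11261 probe sets tested: 3 rose, beside 20.7%, and 2 fell, beside 18.7%. Called means a limma p under 0.05 after Benjamini-Hochberg adjustment over all probe sets tested, and the words rose and fell are kept for genes called higher or lower in the Fkh-labelled arrays. For all 6 members the 3 Fkh-labelled values lay on one side of both w1118 values, which was so for 63.7% of probe sets. The median log2 fold of the members was 0.077, and -0.0051 over all probe sets tested. The median size of the log2 fold regardless of sign was 0.70 for the members and 0.47 for all probe sets. An exact permutation test of 1 value was made two-sided by doubling the smaller tail. With 3 against 2 arrays this p cannot be below 0.2, and each of the 6 members gave 0.2.

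**Figure D1:**
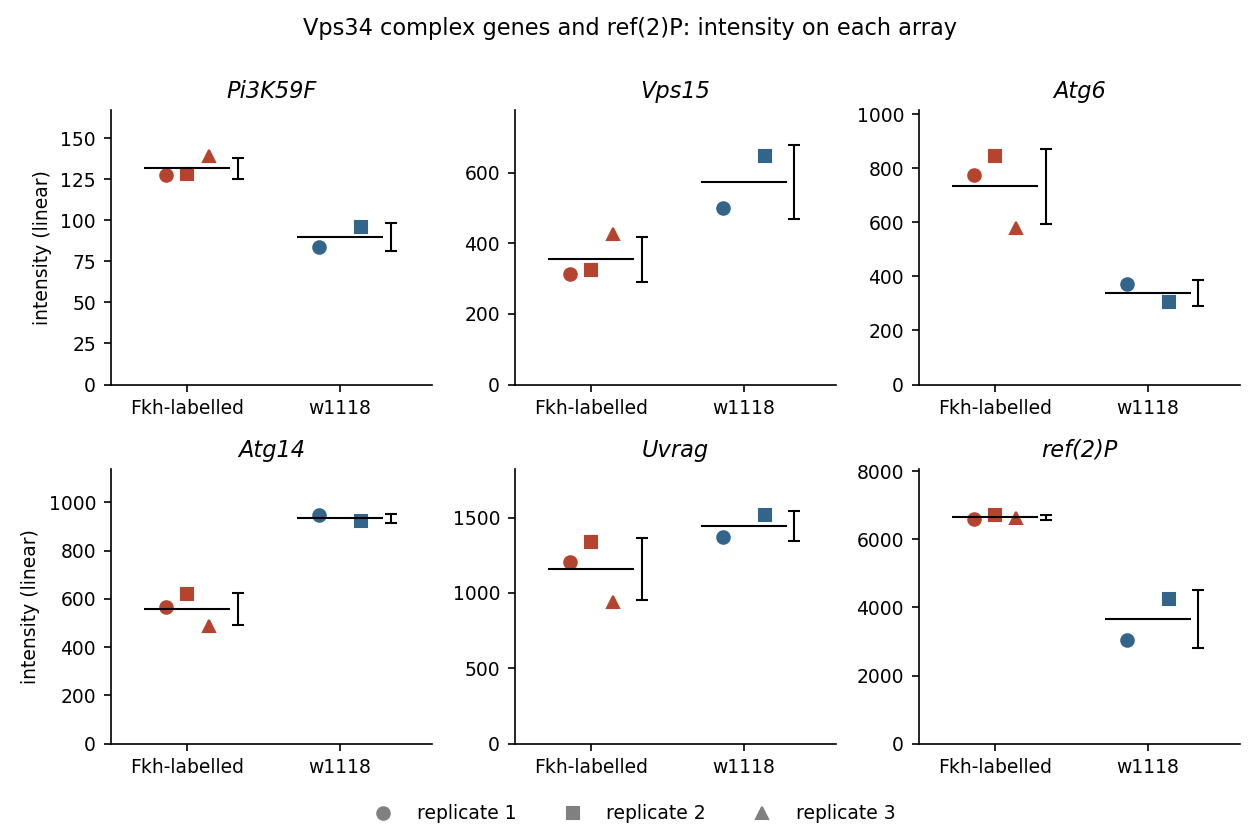
Intensity (linear scale, from 0) of each member on each array, with Fkh-labelled arrays on the left and w1118 arrays on the right of each panel. Symbols mark the replicate number, horizontal lines the group means and error bars the SD (n = 3 and n = 2). Atg6, Pi3K59F and ref(2)P are higher and Vps15, Atg14 and Uvrag lower in every Fkh-labelled array than in either w1118 array; the ref(2)P values of the Fkh-labelled arrays lie between 6586 and 6711.

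The catalytic subunit changed least among the members that passed the test. The Pi3K59F probe set read 127, 128 and 139 in Fkh-labelled arrays 1, 2 and 3, against 83.8 and 95.8 in w1118 arrays 1 and 2. All 3 values lay above both w1118 values, and the third array was the highest. The group means were 131 ± 6.6 (SD, n = 3) in the Fkh-labelled arrays and 89.8 ± 8.5 (SD, n = 2) in the w1118 arrays. On the log2(intensity + 16) scale, which understates the change of dim probe sets such as this one, the fold was 0.48 ± 0.15 (SE), with a 95% interval of 0.13 to 0.84 (limma adjusted p = 0.042). This call was lost with any single array left out, at adjusted p of 0.098, 0.098 and 0.051 without Fkh-labelled arrays 1, 2 and 3 and of 0.20 and 0.090 without w1118 arrays 1 and 2.

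Vps15, the regulatory partner that binds Vps34 directly, went the other way. Its probe set read 313, 324 and 428 in Fkh-labelled arrays 1, 2 and 3, against 499.5 and 648 in w1118 arrays 1 and 2. The groups did not overlap, but the third Fkh-labelled array came close to the first w1118 array. The Fkh-labelled mean was 355 ± 63 (SD, n = 3) and the w1118 mean 574 ± 105 (SD, n = 2), a ratio of 0.618. The log2 fold was -0.67 ± 0.20 (SE), with a 95% interval of -1.16 to -0.18 (limma adjusted p = 0.040). The adjusted p was 0.115 and 0.109 without Fkh-labelled arrays 1 and 2, 0.062 and 0.21 without w1118 arrays 1 and 2, and 0.017 without Fkh-labelled array 3.

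Atg6, the Beclin subunit that joins the kinase to either of the targeting subunits, had the largest fold among the 6 members. It read 776, 845 and 578 in Fkh-labelled arrays 1, 2 and 3, against 372 and 305 in w1118 arrays 1 and 2. The lowest Fkh-labelled value, in the third array, was still above both w1118 values. The Fkh-labelled mean was 733 ± 139 (SD, n = 3) and the w1118 mean 338 ± 47 (SD, n = 2), a ratio of 2.17. The log2 fold was 1.07 ± 0.21 (SE), with a 95% interval of 0.57 to 1.57 (limma adjusted p = 0.0076), and the adjusted p was 0.057 without w1118 array 2.

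Of the targeting subunits, Atg14, which takes the kinase to the site of autophagosome formation, fell. It read 567, 618 and 487 in Fkh-labelled arrays 1, 2 and 3, against 947 and 921 in w1118 arrays 1 and 2. The w1118 arrays were close to each other and well apart from all Fkh-labelled arrays. The Fkh-labelled mean was 558 ± 66 (SD, n = 3) and the w1118 mean 934 ± 18 (SD, n = 2), a ratio of 0.597. The log2 fold was -0.73 ± 0.16 (SE), with a 95% interval of -1.12 to -0.34 (limma adjusted p = 0.013). Without w1118 arrays 1 and 2 the adjusted p was 0.073 and 0.060.

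Uvrag, the subunit of the endosomal form of the complex, did not pass the threshold. It read 1205, 1335 and 936 in Fkh-labelled arrays 1, 2 and 3, against 1373 and 1516 in w1118 arrays 1 and 2. The Fkh-labelled values were all below the w1118 values, but the second of them was nearer to w1118 array 1 than to the third Fkh-labelled array. The Fkh-labelled mean was 1159 ± 203 (SD, n = 3) and the w1118 mean 1444 ± 101 (SD, n = 2). The log2 fold was -0.33 ± 0.19 (SE; limma adjusted p = 0.22). Its 95% interval of -0.79 to 0.14 holds 0 and also a fall as large as that of Atg14.

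The cargo adaptor ref(2)P was the member with the tightest Fkh-labelled values. It read 6586, 6711 and 6630.0 in Fkh-labelled arrays 1, 2 and 3, against 3054 and 4259 in w1118 arrays 1 and 2. The spread lay in the w1118 arrays, which differed by 0.48 on the log2 scale. The Fkh-labelled mean was 6642 ± 64 (SD, n = 3) and the w1118 mean 3657 ± 853 (SD, n = 2), a ratio of 1.82. The log2 fold was 0.88 ± 0.18 (SE), with a 95% interval of 0.44 to 1.32 (limma adjusted p = 0.010), and without w1118 array 1 it was 0.64 with an adjusted p of 0.064. The highest value on these arrays lay between 15488 and 16326, so ref(2)P was not at the top of the range.

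**Figure D2:**
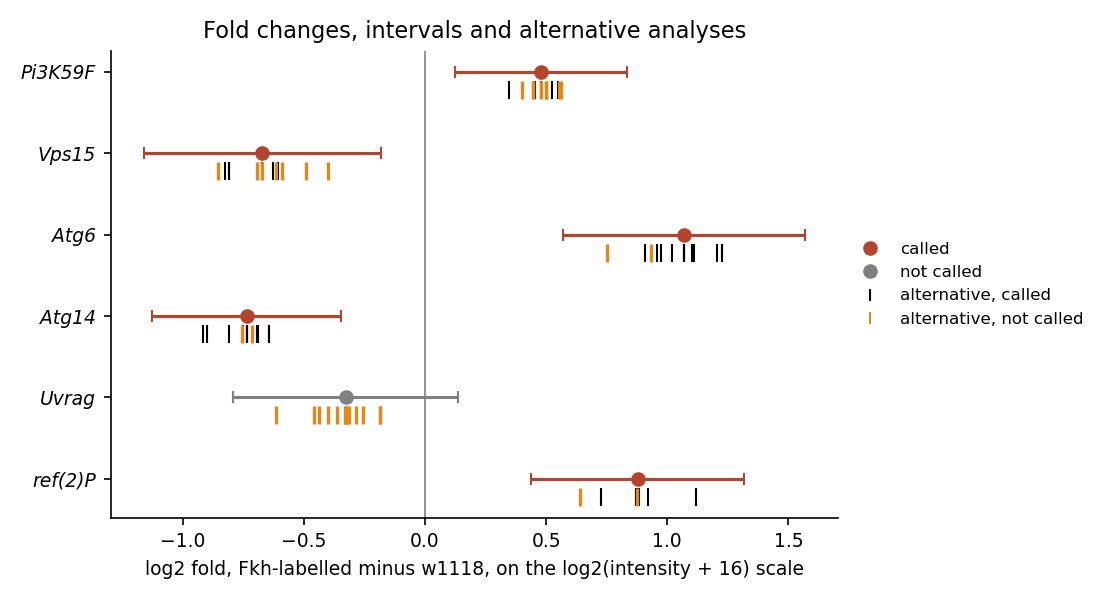
Log2 fold of each member, Fkh-labelled minus w1118, on the log2(intensity + 16) scale, with its 95% interval (points and bars; red for members past the threshold, grey for Uvrag). Ticks under each point are the 14 alternative analyses, black where the adjusted p was under 0.05 and orange where it was not; every tick lies on the same side of 0 as its point, from 0.75 to 1.23 for Atg6 and from -0.61 to -0.18 for Uvrag.

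The members differed in how far the third Fkh-labelled array stood from the other Fkh-labelled arrays. Relative to the mean of arrays 1 and 2, its log2 signal differed by -0.48 for Atg6, -0.43 for Uvrag and -0.27 for Atg14, by 0.41 for Vps15 and 0.11 for Pi3K59F, and by -0.0040 for ref(2)P. The median size of this difference over all probe sets tested was 0.25. For Vps15 and Atg6 the third array was thus nearer to the w1118 arrays, and for Atg14, Uvrag and Pi3K59F farther from them. The w1118 arrays differed from each other too: array 2 minus array 1 was 0.48 for ref(2)P, 0.36 for Vps15, 0.16 for Pi3K59F and 0.14 for Uvrag, and -0.27 for Atg6 and -0.040 for Atg14, beside a median size of 0.20 over all probe sets. The residual SD within groups was 0.085 for Pi3K59F, 0.14 for Atg14 and 0.20 for ref(2)P, and 0.22, 0.24 and 0.25 for Uvrag, Vps15 and Atg6. Pi3K59F was therefore the steadiest probe set as well as the called one with the smallest fold, and limma, which draws each spread towards that of all probe sets, tested it with a larger spread than its own. With the third array alone against both w1118 arrays, where that array is assumed to vary as the w1118 arrays do, Atg14 was the only member that passed the threshold (log2 fold -0.92, limma adjusted p = 0.039), and 24.3% of all probe sets did. Atg6 then had a log2 fold of 0.75 and Vps15 of -0.40. Without the filter on low signal 3 members were called, Atg6, Atg14 and ref(2)P, beside 23.9% of 18769 probe sets. Without Fkh-labelled array 1 and without Fkh-labelled array 2, 3 members were called each time, beside 30.0% and 30.3% of probe sets, and without Fkh-labelled array 3 there were 4, beside 43.4%. With a single w1118 array, whose spread is then taken from the other group, 1 member was called: Atg6 without w1118 array 1 and ref(2)P without w1118 array 2, where 25.0% and 27.0% of probe sets were called.

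Within each array, the difference between the log2 signals of a pair of members removes a scaling factor common to that array, apart from the effect of the added constant. Levels of different probe sets cannot be compared, so each difference is given relative to its own w1118 mean. Pi3K59F relative to Vps15 was higher by 1.27, 1.23 and 0.95 in Fkh-labelled arrays 1, 2 and 3, against 0.10 and -0.10 in w1118 arrays 1 and 2. The mRNAs of these binding partners therefore shifted against each other by 1.15 on average, and the groups did not overlap. Atg6 relative to Atg14 was higher by 1.87, 1.87 and 1.67 in the Fkh-labelled arrays, against 0.12 and -0.12 in the w1118 arrays, a mean shift of 1.80. Atg6 relative to Uvrag was higher by 1.42, 1.40 and 1.37 in the Fkh-labelled arrays, against 0.21 and -0.21 in the w1118 arrays, and this shift was the most even of the 5 among the Fkh-labelled arrays (SD 0.028, n = 3). Atg6 relative to Vps15 was higher by 2.00, 2.07 and 1.15 in the Fkh-labelled arrays, against 0.32 and -0.32 in the w1118 arrays, so the third array showed a smaller shift. Atg14 relative to Uvrag, the subunits that distinguish the autophagosomal from the endosomal complex, differed by -0.45, -0.47 and -0.30 in Fkh-labelled arrays 1, 2 and 3, against 0.091 and -0.091 in the w1118 arrays, a mean shift of -0.41. In each of the 5 pairs the groups did not overlap. The exact permutation p, with the smaller tail doubled, was 0.2, the smallest it can be here, also when adjusted over the 5 pairs. Except in Atg14 minus Uvrag, the first gene was higher and the second lower in every Fkh-labelled array than in either w1118 array. For those pairs non-overlap, and so this p, was fixed by the members' own values and adds no evidence.

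**Figure D3:**
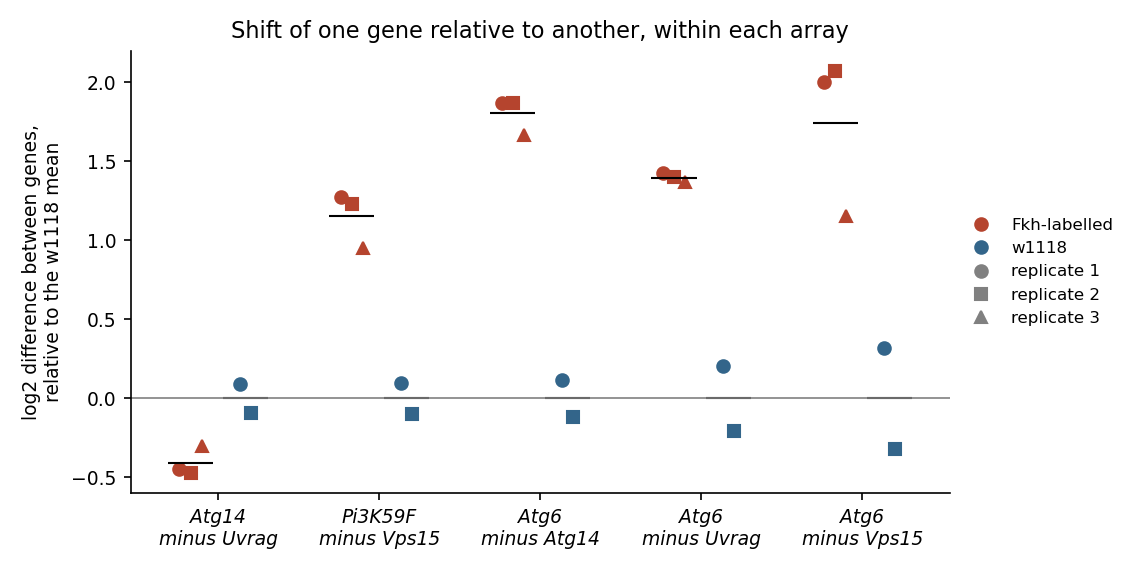
Difference between the log2(intensity + 16) signals of 2 members within each array, set relative to the w1118 mean of that pair, with Fkh-labelled arrays left of w1118 arrays. Symbols mark the replicate number and lines the group means; the Fkh-labelled means are 1.80 for Atg6 minus Atg14, 1.74 for Atg6 minus Vps15, 1.40 for Atg6 minus Uvrag, 1.15 for Pi3K59F minus Vps15 and -0.41 for Atg14 minus Uvrag.

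The genes whose log2 values followed each member most closely over the 5 arrays were found among 8292 other genes by the root mean square distance between the profiles, each centred on its own mean. This is a description over 5 arrays that all genes share. For Pi3K59F the nearest were CG11593 (0.029) and CG9915 (0.034), and for Atg6 CG12560 (0.033) and CG3163 (0.049). For Vps15 they were GstE1, a glutathione transferase (0.034), and Ucp4C, a mitochondrial carrier of the uncoupling protein family (0.041). For Atg14 they were CR14117 (0.021) and Nxt1, a factor of mRNA export (0.024), and for Uvrag Creld (0.028) and CG34227 (0.028). For ref(2)P they were CG8726 (0.041) and CG3777 (0.055). CR14117 was dim, at 25.9, 28.6 and 20.9 in the Fkh-labelled arrays against 53.0 and 50.1 in the w1118 arrays. It did not pass the filter with either w1118 array left out. Its closeness to Atg14 depends on the added constant: with a constant of 1 its log2 fold was -1.02, against -0.75 for Atg14. Profiles within a distance of 0.1 were found for 145 genes around Pi3K59F, 93 around Uvrag, 82 around Atg14, 37 around Vps15, 25 around Atg6 and 20 around ref(2)P. By this count ref(2)P had the fewest close profiles of the 6, with Atg6 near it. The distance is not scaled to the size of a gene's changes, so the count also depends on the fold. Pi3K59F and Uvrag, with the smallest folds of the 6, had the most.

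On the list of ref(2)P partners and ubiquitin-linked factors, Keap1, cnc and maf-S also rose. Whether their products act with ref(2)P in these glands was not tested. Keap1 is the adaptor of a ubiquitin ligase that restrains the transcription factor CncC, a product of cnc and the fly Nrf2, and maf-S encodes its small Maf partner. In mammals p62 binds Keap1. Keap1 read 1841, 1938 and 1530.1 in Fkh-labelled arrays 1, 2 and 3, against 229 and 270 in w1118 arrays 1 and 2, a log2 fold of 2.75 ± 0.17 (SE; limma adjusted p = 6.2e-05). It was the largest fold among the 47 genes tested on the 4 pathway lists. The brightest probe set of cnc read 3987, 4537 and 3820 in Fkh-labelled arrays 1, 2 and 3, against 1730.4 and 2188 in w1118 arrays 1 and 2, a log2 fold of 1.07 (limma adjusted p = 0.0036), and its other probe set rose by 1.89. maf-S read 7758, 7848 and 7642 in Fkh-labelled arrays 1, 2 and 3, against 2927 and 2488 in w1118 arrays 1 and 2, a log2 fold of 1.52 (limma adjusted p = 0.00044). None of these groups overlapped.

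Another gene of this list changed in the opposite direction. bchs, the fly Alfy, a large scaffold protein that brings ubiquitylated aggregates and the autophagy machinery together, read 500.2, 476 and 653 in the Fkh-labelled arrays, against 1786 and 2920 in the w1118 arrays. Its log2 fold was -2.05 ± 0.25 (SE; limma adjusted p = 0.0011). Atg8a, the ubiquitin-like protein of the autophagosome membrane that ref(2)P binds, was named after its values were seen. It read 8566, 7993 and 7157 in the Fkh-labelled arrays, against 7990 and 7501 in the w1118 arrays, and the groups overlapped, with a log2 fold of 0.026 ± 0.16 (SE) and a sign that depends on the arrays and the scaling used (limma adjusted p = 0.91). Of 14 genes tested on the list of ref(2)P partners and ubiquitin-linked factors 5 were called, 3 that rose and 2 that fell, beside 40.8%, 21.5% and 19.3% of all 8298 genes. The second fall was that of the ubiquitin gene Ubi-p5E, named after its values were seen (log2 fold -0.45, limma adjusted p = 0.046), and it was lost without Fkh-labelled arrays 1 and 2 (0.12 for each) and w1118 arrays 1 and 2 (0.20 and 0.11). The median log2 fold of the list was 0.061. Keap1, cnc, maf-S and bchs were called with any single array left out.

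**Figure D4:**
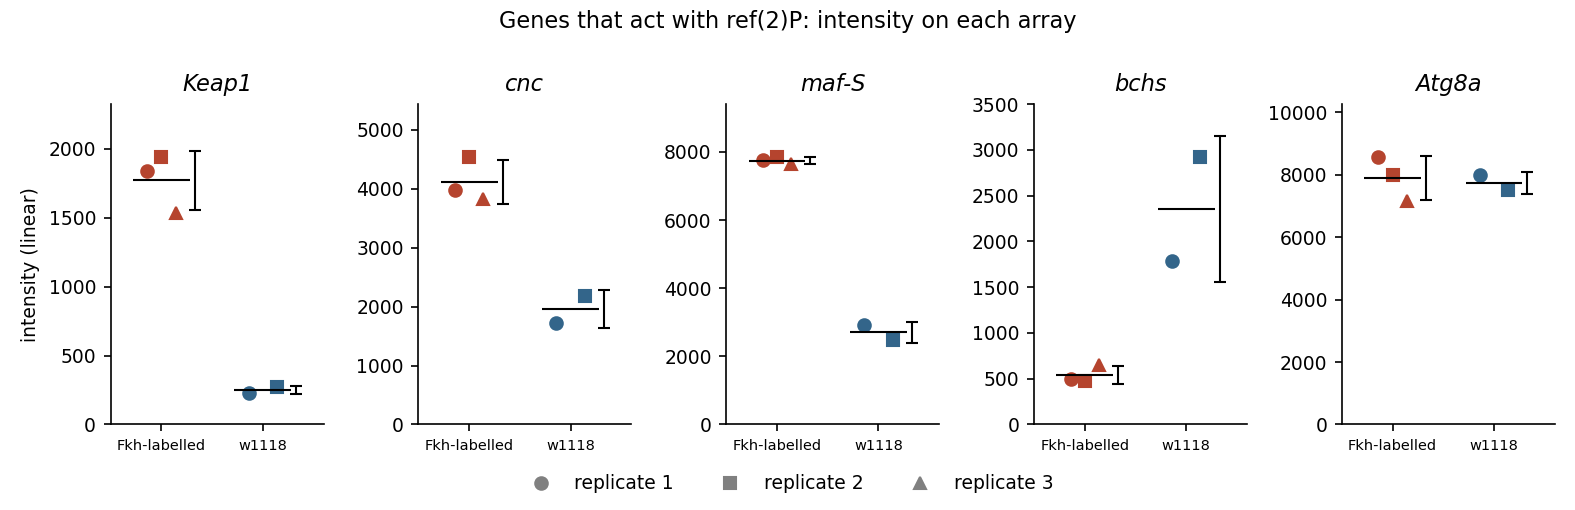
Intensity (linear scale, from 0) on each array of 5 genes from the list of ref(2)P partners and ubiquitin-linked factors. Fkh-labelled arrays are on the left and w1118 arrays on the right. Symbols mark the replicate number, lines the means and error bars the SD (n = 3 and n = 2); Keap1, cnc and maf-S are higher and bchs lower in every Fkh-labelled array, and Atg8a overlaps.

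Among genes that act on PI3P, 3 of 7 tested were called, beside 40.8% of all genes, with a list median log2 fold of 0.26. The PI3P phosphatases EDTP and mtm rose by 1.40 and 0.88 on the log2 scale (limma adjusted p = 0.0047 and 0.0064), and CG5026 fell by 1.07. Proteins that bind PI3P or act at the endosome went both ways: of 17 tested 6 fell, beside 19.3% of all genes, and 4 rose, beside 21.5%, with a median of -0.35. Plekhm1, an adaptor of late endosomes, had -1.14, Atg18a, which binds PI3P on the forming autophagosome, -0.97, and the FYVE-domain proteins Sara and Hrs -0.85 each (limma adjusted p = 0.0018, 0.0040, 0.0054 and 0.013), of which Hrs missed the threshold without w1118 arrays 1 and 2 (0.0504 and 0.081). The 4 rises, Atg18b, Mon1, Vps26 and Vps8, and the falls of Snx1 and Vps29 were named after their values were seen. The list gave 2 rises and 4 falls without Fkh-labelled array 1 or 2 (30.0% and 30.3% of all probe sets called), 2 and 3 without w1118 array 1 (25.0%), and 0 and 3 without w1118 array 2 (27.0%; limma; 2 rises then had an unadjusted p under 0.05). Of 9 genes for autophagosome fusion 1 was called, beside 40.8% of all genes, with a list median of 0.25: lt, the Vps41 subunit of a tethering complex, rose by 1.86 (limma adjusted p = 0.00037). On this list 3 genes rose without Fkh-labelled array 3 (43.4% of all probe sets called) and 2 without w1118 array 1 (25.0%).

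**Figure D5:**
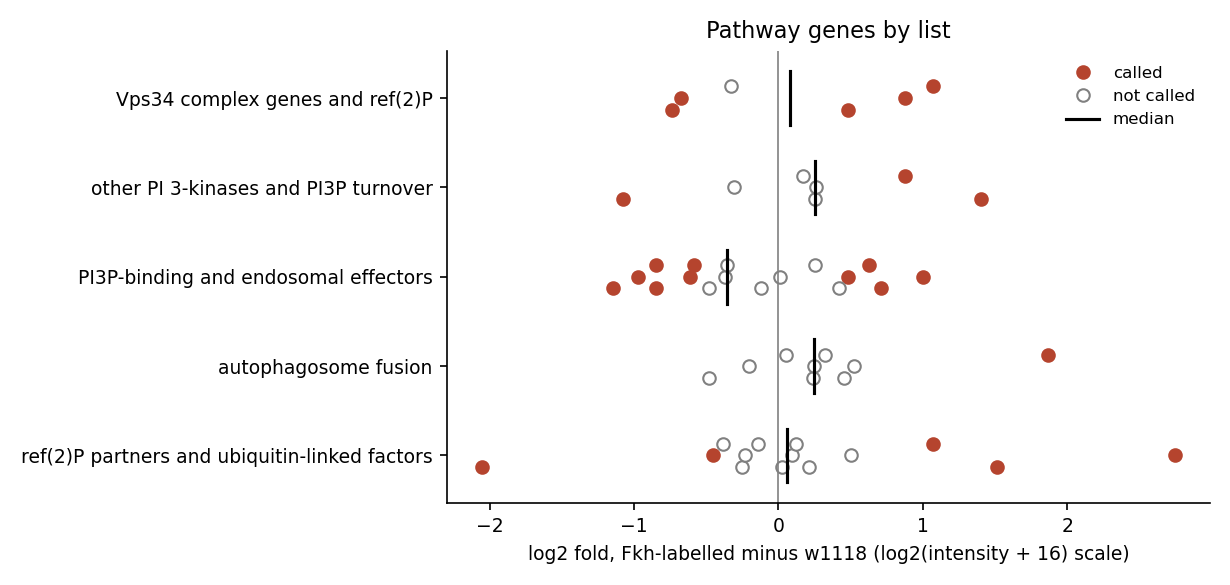
Log2 fold (Fkh-labelled minus w1118) of every tested gene of the members and of the 4 pathway lists; filled points passed the threshold, open points did not, and black lines are list medians. The medians lie between -0.35 and 0.26, and each list except that for autophagosome fusion holds filled points on both sides of 0.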

How the data were processed

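Each array has 1 linear intensity per probe set, deposited by the authors after dChip normalization to a common baseline array (median 134, per the series' design text). Array medians lay between 44.5 and 49.3; the number of arrays limits the precision. RNA was extracted with TRIzol and labelled as biotin cRNA, per the labels' protocols. Replicates are called biological there. The 183 control probe sets were left out. Values were transformed as log2(intensity + 16), and probe sets with a mean above the 40th percentile were kept (11261 of 18769). A two-sided moderated test (limma 3.58.1, R 4.3.3, with 3 residual degrees of freedom plus 3.63 prior) was run across all kept probe sets. Its p-values were adjusted over them. It was checked on simulated data with independent noise and far fewer changed probe sets than were called here. That check does not cover differences shared across an array. Other genes were represented by their brightest probe set with 1 symbol. Symbols come from the platform annotation; 13544 of 13647 probe sets with 1 symbol matched the RefSeq table of Release 6 plus ISO1 MT. Members and lists were chosen with earlier results of these data known. Named were all members, up to 4 called genes of each list with the smallest p, and the 2 nearest profiles of each member. List genes with no such probe set were not analysed here, and Dif was under the filter. Alternatives changed the constant, filter, scaling, variance model, replicate block, probe set per gene and arrays used.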

Additional observations from a re-analysis of the deposited data

How the results depend on the processing

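All 6 members kept their direction under all 14 alternatives. For most alternatives this was fixed in advance. Every Fkh-labelled value of a member lay on the same side of both w1118 values. Leaving out arrays, changing the constant or adding the replicate block could therefore not turn a direction. The filter and the variance model do not alter the fold, so only the changes of scaling could have turned it. The calls did not all hold, and the cause was not tested. Over fits that each left out 1 array, the log2 folds ranged from 0.40 to 0.56 for Pi3K59F, -0.85 to -0.49 for Vps15, 0.93 to 1.23 for Atg6, -0.81 to -0.64 for Atg14 and 0.64 to 1.12 for ref(2)P, and between 1 and 4 members were called. Over all probe sets 2820 to 4890 were then called, with 1222 to 2309 that fell, and 11 to 22 genes of the pathway lists. With the third Fkh-labelled array alone the folds of Pi3K59F, Vps15, Atg6 and ref(2)P were 0.55, -0.40, 0.75 and 0.88, none past the threshold; 1 member, 10 genes of the lists and 2734 probe sets (1337 rose, 1397 fell) were called. Without the filter 3 members were called, and Pi3K59F (0.48) and Vps15 (-0.67) missed the threshold (limma adjusted p = 0.092 and 0.065); the test then ran over 18769 probe sets, of which 23.9% were called. With a constant of 1 Vps15 had -0.69 (limma adjusted p = 0.052). Replicate numbers 1 and 2 occur in both groups, but nothing in the labels says that they pair samples. Deviations of same-numbered arrays correlated at 0.077 and -0.11. The deviations of the w1118 arrays mirror each other, so these values cannot show whether the numbers pair samples. Only the Fkh-labelled group has a replicate 3, so the block takes up that array. With the replicate block each member's fold equalled that without Fkh-labelled array 3. Pi3K59F then had 0.44 (limma adjusted p = 0.085), and no other member's call changed. The uncalled fold of Atg8a turned to -0.091 with quantile normalization, to -0.11 with the third Fkh-labelled array alone, and ranged from -0.033 to 0.096 with an array left out. The number of arrays limits the precision, and the constant lowers the folds of dim probe sets: Pi3K59F had 0.55 with a constant of 1 and 0.35 with 64.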
